A study of Mus musculus with 4 samples.

Results

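Heat shock protein messenger RNAs were followed by the length of their poly(A) tails and by their read number in J1 mouse embryonic stem cells. The rows were chosen by gene symbol, with no threshold on a measured value, from a list of symbols drawn up with earlier results of these data known, and covered 10 genes of the 13831 symbols with reads: Hsp90ab1, Hsp90aa1, Hspa8, Hspa4 and Hsph1 of the cytosol, Hsp90b1 and Hspa5 of the endoplasmic reticulum (ER), and Hspa9, Hspd1 and Hspe1 of mitochondria. Their gene identifiers, in the same order, are ENSMUSG00000023944.14, ENSMUSG00000021270.13, ENSMUSG00000015656.17, ENSMUSG00000020361.13, ENSMUSG00000029657.15, ENSMUSG00000020048.13, ENSMUSG00000026864.13, ENSMUSG00000024359.10, ENSMUSG00000025980.14 and ENSMUSG00000073676.4. The cells were wild type (WT) or knocked out for the RNA helicase Mov10 (Mov10 KO, here KO), with 2 libraries of each genotype, named WT 1, WT 2, KO 1 and KO 2. All 4 libraries came from J1 cells grown in medium with serum and LIF and were made by direct RNA nanopore sequencing from 4 µg of total RNA selected on oligo(dT) beads. The labels do not say whether the KO cells were 1 clone or several, or whether libraries of a genotype came from separate cultures. The p-values thus cover only the spread between these libraries. The fits (limma) draw each gene's spread towards that of other genes. A standard error (SE) can thus be smaller than the gene's own libraries alone would give. All 10 genes had reads in each library, in all 23648 reads with a tail length above 0, or from 0.966% of the reads in WT 1 to 1.41% in KO 2.

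Heat shock proteins are molecular chaperones and co-chaperones, and many of them bind unfolded or partly folded proteins and release them in cycles driven by ATP. HSP90 proteins act late on clients such as kinases and receptors, HSP70 proteins act early on exposed hydrophobic stretches, and HSP110 proteins exchange the nucleotide of HSP70. The chaperonin of mitochondria encloses its client in a chamber made of Hspd1 and capped by Hspe1. Many of these genes are switched on by the transcription factor HSF1 through heat shock elements or, for those of the ER, by the unfolded protein response through ER stress response elements. A poly(A) tail is added in the nucleus and shortened in the cytoplasm, and its length is 1 of the properties tied to translation and decay of an mRNA.

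Promoter windows from RefSeq (GRCm38.p6), from 250 bases before to 50 bases after an annotated start, were at hand for 6 of the 10 genes, as 8 windows. 4 of them are shown, chosen with the read numbers known. Hspd1, Hsp90b1, Hspa5 and Hsph1 shared a pattern of read number over libraries that is described further on. Hspe1, which shares promoter sequence with Hspd1, did not. Hspd1 and Hspe1 lie head to head, and the window of Hspe1 (chr1:55087898-55088197, plus strand) overlaps that of the downstream start of Hspd1 (chr1:55087883-55088182, minus strand). Capitals mark 2 overlapping heat shock elements of 3 units, searched as GAANNTTCNNGAA and its mirror arrangement on both strands.
Hspe1: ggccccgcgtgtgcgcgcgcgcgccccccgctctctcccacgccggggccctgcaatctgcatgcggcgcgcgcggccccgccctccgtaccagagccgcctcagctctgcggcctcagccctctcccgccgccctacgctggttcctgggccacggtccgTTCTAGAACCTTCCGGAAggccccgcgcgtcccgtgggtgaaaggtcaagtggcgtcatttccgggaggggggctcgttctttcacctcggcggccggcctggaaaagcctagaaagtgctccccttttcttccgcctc
Hspa5 (chr2:34771840-34772139, plus strand) and Hsp90b1 (chr10:86705395-86705694, minus strand) each hold the ER stress response element, searched as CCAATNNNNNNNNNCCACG on both strands and marked in capitals, once and 2 times.
Hspa5: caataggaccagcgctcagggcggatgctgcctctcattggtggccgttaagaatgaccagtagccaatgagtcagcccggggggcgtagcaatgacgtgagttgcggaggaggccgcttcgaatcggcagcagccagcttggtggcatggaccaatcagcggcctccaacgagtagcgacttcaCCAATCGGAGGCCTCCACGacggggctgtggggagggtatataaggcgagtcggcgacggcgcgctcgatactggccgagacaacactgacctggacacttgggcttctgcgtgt
Hsp90b1: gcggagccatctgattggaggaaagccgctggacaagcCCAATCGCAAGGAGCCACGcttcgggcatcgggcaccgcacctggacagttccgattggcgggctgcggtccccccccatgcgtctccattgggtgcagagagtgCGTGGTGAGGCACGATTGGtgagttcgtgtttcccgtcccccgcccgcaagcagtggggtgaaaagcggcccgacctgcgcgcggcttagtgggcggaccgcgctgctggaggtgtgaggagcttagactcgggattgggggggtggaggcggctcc
Hsph1 (chr5:149636287-149636586, minus strand) has a heat shock element of 3 units 36 bases after this start, and a shorter one of 2 units 33 bases before it, searched as GAANNTTC and its mirror arrangement, both in capitals.
Hsph1: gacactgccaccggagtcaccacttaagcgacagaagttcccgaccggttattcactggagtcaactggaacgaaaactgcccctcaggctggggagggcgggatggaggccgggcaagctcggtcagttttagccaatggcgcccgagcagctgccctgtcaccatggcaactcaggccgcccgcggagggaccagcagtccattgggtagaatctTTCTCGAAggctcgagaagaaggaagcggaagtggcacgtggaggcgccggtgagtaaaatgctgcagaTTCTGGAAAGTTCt
Over all 32851 windows of this length, 0.603% held a heat shock element of 3 units, 15.1% 1 of 2 units, which the longer element includes, and 0.119% the ER stress response element. Neither element was matched in the window of Hspa4 or in that of the upstream start of Hspd1. A match describes the letters of a window and is not a measured binding site. Whether these elements go with the pattern of read number was not tested.

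The cells were checked first. All 10 embryonic stem cell markers, such as Pou5f1 and Sox2, had reads, with summed levels from 7246 to 9691 reads per 1000000 reads (RPM), and both KO libraries (7246 and 8307 RPM) lay below both WT libraries (9565 and 9691 RPM). What part this has in the comparisons of genotypes was not tested. Of the markers of feeder fibroblasts 6 of 8 were at 0 reads, among them Col1a1 and Col1a2, and their sum was at most 14.0 RPM. Endoderm markers were at 0 for 3 of 6 genes (Sox17, Foxa2 and Dab2) and mesoderm and neural markers for 3 of 6 (T, Sox1 and Neurog1), with sums of at most 4.55 and 4.65 RPM. Mov10 had 26 and 14 reads in WT and 0 and 1 in KO, a fitted log2 change of -5.08 (limma, adjusted p = 0.0335), a call that was lost with limma-trend on RPM (0.174) and without KO 1 (0.977) or KO 2 (0.993). The libraries held from 351133 to 683239 reads.

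Median tails of the heat shock mRNAs, averaged over libraries, ran from 83.5 to 121.4 nt, with Hspa8 set apart at the short end. Hspa8, the constitutive cytosolic HSP70, had the shortest median tail of the 10 genes in each of the 4 libraries, and its mean over libraries was 83.5 nt ± 8.31 (SD, n = 4). The longest tails belonged to Hsp90b1, the HSP90 of the ER also called Grp94, with 121.4 nt ± 4.70 (SD, n = 4), and to Hsp90ab1, the constitutive cytosolic HSP90, with 118.8 nt ± 12.6 (SD, n = 4). The order from there was Hspa9 at 110.4 nt, Hsp90aa1 at 108.3 nt, Hspe1 at 106.7 nt, Hsph1 at 105.8 nt, Hspa5 at 102.5 nt, Hspd1 at 98.8 nt and Hspa4 at 97.3 nt. Only the last step, from Hspa4 to Hspa8, exceeded the spread of its own difference over libraries: 13.7 nt ± 6.07 (SD, n = 4), in the same direction in 4 of 4 libraries. All other neighbours in this order differed by less than the SD of their difference, and 23 of the 45 pairs kept 1 order in every library. Genes further apart in the order could differ by more, such as Hsp90b1 and Hspa4, by 24.1 nt ± 3.21 (SD, n = 4).

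**Figure D1:**
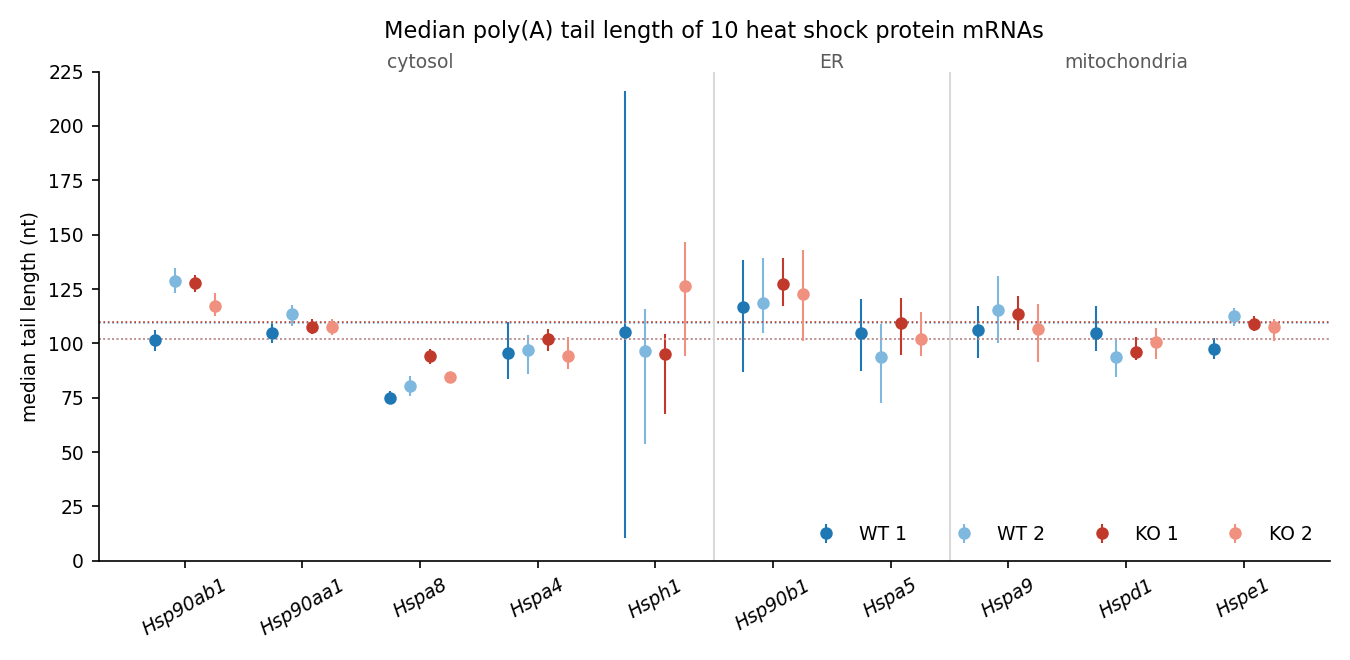
Median poly(A) tail length in nt (vertical axis) of the 10 genes in each library, with 95% order-statistic intervals over reads as bars and, as dotted lines, the median over the tested genes in each library (from 102.0 to 110.0 nt). Hspa8 lies below all other genes in each library, and the interval of Hsph1 in WT 1, which had 8 reads, runs from 10.7 to 216.3 nt.

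In the cytosol, Hspa8 had a median tail of 74.8 nt in WT 1 (95% order-statistic interval 72.5 to 78.3 nt) and of 80.3 nt in WT 2 (interval 75.8 to 84.8 nt), while its median was 94.4 nt in KO 1 (interval 90.5 to 97.2 nt) and reached 84.7 nt in KO 2 (interval 82.2 to 86.7 nt). Both KO libraries lay above both WT libraries. It rested on 1142 to 1912 reads a library. The interval of WT 2, which like the others covers the sampling of reads only, overlapped those of WT 1 and KO 2, while that of KO 1 overlapped none. Its median, ranked among the genes that had 20 or more reads in every library, stood at percentile 3.10 in WT 1 and 5.22 in WT 2, against 14.0 in KO 1 and 11.8 in KO 2.

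Hsp90ab1 had median tails of 101.5 nt in WT 1 and 128.8 nt in WT 2, against 127.6 nt in KO 1 and 117.4 nt in KO 2. WT 1 stood apart at the low end, while the other WT library was the highest of the 4. Its relative Hsp90aa1, the more stress-responsive cytosolic HSP90, varied less, with 104.8 nt in WT 1 and 113.4 nt in WT 2, against 107.5 nt in KO 1 and 107.4 nt in KO 2. Within libraries, Hsp90aa1 had the shorter tail of the pair in 3 of 4, by log2 ratios of -0.18, -0.25 and -0.13, and in WT 1 the ratio was 0.05. Hspa4, an HSP110-type exchange factor, had 95.5 nt in WT 1 and 97.1 nt in WT 2, against 102.2 nt in KO 1 and 94.4 nt in KO 2, and the genotypes overlapped. Hsph1, the other HSP110 gene, had only 8, 33, 52 and 36 reads in WT 1, WT 2, KO 1 and KO 2. Its medians of 105.2, 96.5, 95.1 and 126.4 nt in that order had wide intervals, and it was too rare for the tests of tail length.

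In the ER, Hsp90b1 had 116.8 nt in WT 1 and 118.8 nt in WT 2, against 127.5 nt in KO 1 and 122.5 nt in KO 2, and both KO libraries lay above both WT libraries. Hspa5, the ER HSP70 known as BiP, had 104.6, 94.0, 109.3 and 102.2 nt in the same order, with overlapping genotypes. The median of Hspa5 was below that of Hsp90b1 in all 4 libraries, by a mean log2 ratio of -0.25 ± 0.07 (SD, n = 4).

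In mitochondria, Hspa9, the matrix HSP70 that also pulls imported proteins inward, had 106.4 nt in WT 1 and 115.5 nt in WT 2, against 113.3 nt in KO 1 and 106.5 nt in KO 2. Hspd1, the chaperonin HSP60, had 104.8, 93.6, 96.0 and 100.6 nt, with both KO libraries inside the range of WT. Hspe1, its co-chaperonin HSP10, had 97.5, 112.8, 109.0 and 107.6 nt, again with KO inside the range of WT. The log2 ratio of the Hspd1 to the Hspe1 median was 0.10 in WT 1 and -0.27, -0.18 and -0.10 in the other libraries. Hspd1 thus had the shorter tail in every library but WT 1. There the 95% order-statistic intervals over reads overlapped, with 96.6 to 117.0 nt for Hspd1 and 92.7 to 102.4 nt for Hspe1. They also overlapped in KO 2.

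Each gene was then set against the typical gene, as the log2 ratio of its median to the median over the 1935 tested genes of the same library, and this ratio was tested against 0 over the 4 libraries with limma. Of the 9 heat shock genes tested, 2 had longer tails at an adjusted p of 0.05, where 16.6% of all genes did, and 2 had shorter tails, where 18.3% did. These counts are small and not far from the shares over all genes. Hspa8 was shorter by a log2 ratio of -0.35 (SE 0.03, limma, adjusted p = 2.49e-10), with values of -0.45 in both WT libraries, -0.22 in KO 1 and -0.27 in KO 2. Hsp90ab1 was longer by 0.16 (SE 0.04, limma, adjusted p = 0.00105), although its value in WT 1 was -0.01. Hsp90b1 was longer by 0.20 (SE 0.06, limma, adjusted p = 0.0118), in 4 of 4 libraries. Hspa4 was shorter by -0.12 (SE 0.05, limma, adjusted p = 0.0328), also in 4 of 4 libraries.

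The calls differed in how much they rested on single libraries. Hspa8 and Hsp90ab1 passed with each library left out. Hsp90b1 did not pass without KO 1 (limma, adjusted p = 0.0801) or KO 2 (0.0626), and Hspa4 did not pass without WT 2 (0.157), KO 1 (0.135) or KO 2 (0.0612), nor among genes with at least 50 reads in each library (0.0677). The chaperonin Hspd1 had a log2 ratio of -0.10 and missed the threshold (limma, adjusted p = 0.0874), but passed without WT 1 (0.00960) and without KO 2 (0.04997), with the mean of log2 tail lengths (0.0431) and with at least 10 reads (0.0496). Hspa9, Hsp90aa1, Hspe1 and Hspa5 had log2 ratios of 0.06, 0.03, 0.01 and -0.05 and adjusted p-values from 0.388 to 0.830 (limma).

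The whole distribution of Hspa8 tails was shifted to short lengths. Its lower quartile lay at 53.1 nt in both WT libraries, 62.2 nt in KO 1 and 58.4 nt in KO 2, and its upper quartile from 112.3 to 132.5 nt. Tails of 150 nt or more made up 10.997% of Hspa8 reads in WT 1 and 13.1% in WT 2, against 15.9% in KO 1 and 11.1% in KO 2, against 18.4%, 34.3%, 33.5% and 29.8% for Hsp90ab1. The typical tested gene had from 21.5 to 25.0% of such reads. Hsp90b1 had the highest mean share of long tails, 34.5% ± 3.41 (SD, n = 4), with both KO libraries (37.2 and 37.6%) above both WT libraries (31.0 and 32.2%). It was the only 1 of the 9 genes to do so, where 14.3% of all tested genes did. On as few as 42 reads a library, the 95% Wilson intervals of these Hsp90b1 shares reached up to 47.4%.

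Tails under 30 nt made up 4.09% of Hspa8 reads in WT 1 (95% Wilson interval 3.10 to 5.38%) and 5.25% in WT 2 (4.10 to 6.704%), against 1.88% in KO 1 (1.35 to 2.60%) and 2.35% in KO 2 (1.76 to 3.13%). For all reads of a library the share was 2.35% in WT 1 and 3.02% in WT 2, against 1.55% in KO 1 and 2.75% in KO 2. The share in Hspa8 was above that of its library in WT 1, WT 2 and KO 1. Both KO libraries had a lower short share than both WT libraries for 2 of the 9 genes tested for tail length, Hspa8 and Hsp90aa1, where 21% of all tested genes did, and for Hsph1, which was too rare for those tests. In WT 2 the short share was also high for Hspa4, 8.26% (95% Wilson interval 5.74 to 11.7%), and for Hspd1, 8.06% (5.71 to 11.3%). In the other libraries these genes had from 1.41 to 4.71%. Hspa5 had 6.38% in WT 2 (2.96 to 13.2%) and from 2.08 to 2.76% elsewhere, and the interval of WT 2 overlapped those of all other libraries. Hsph1 had 15.2% in WT 2 (6.65 to 30.9%) and 12.5% in WT 1, where this was 1 of 8 reads.

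**Figure D2:**
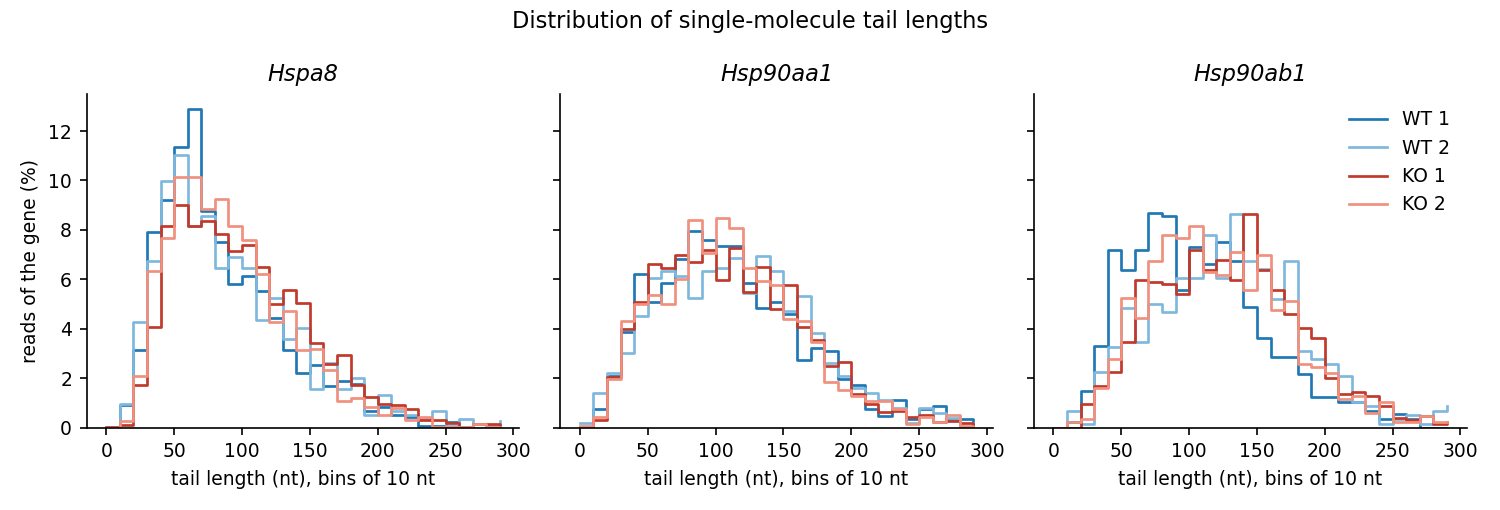
Share of each gene's reads (vertical axis, %) by tail length in bins of 10 nt (horizontal axis, shown to 300 nt) for Hspa8, Hsp90aa1 and Hsp90ab1, with 1 line a library. The Hspa8 lines peak at shorter lengths than those of the HSP90 genes, and for Hsp90ab1 the WT 1 line (median 101.5 nt) lies left of the other libraries.

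The comparison of KO with WT addresses whether tails change in length where Mov10 is lost. No heat shock gene passed the test for a difference in median tail length: 0 of the 9 tested were called by limma at an adjusted p of 0.05, where 0% of all 1935 genes were called and 44 had an unadjusted p under 0.05. The 9 changes ran from -0.02 to 0.21 on the log2 scale, 6 above and 3 below 0, with a median of 0.05 against 0.01 over all genes. The same fit for the odds of a tail of 150 nt or more also called 0 of 9, where 0% of all genes were called and 64 had an unadjusted p under 0.05, with log2 odds changes from -0.18 to 0.43. Both KO medians lay above both WT medians for 2 genes, Hspa8 and Hsp90b1, where 14.7% of tested genes did so, and below them for 0, where 11.8% did.

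Among the 9, Hspa8 had the largest change. Its median tail averaged 77.5 nt ± 3.94 (SD, n = 2) over the wild type libraries and 89.6 nt ± 6.86 (SD, n = 2) over the knockout libraries, for a log2 change of 0.21 (SE 0.10). The unadjusted p was 0.0320 and the adjusted p over all genes 0.9998 (limma), so this does not pass. With each library left out in turn the change ran from 0.13 without KO 1 to 0.29 without KO 2. For Hsp90b1 the averages were 117.8 nt ± 1.35 (SD, n = 2) with Mov10 and 125.0 nt ± 3.53 (SD, n = 2) without it, for a log2 change of 0.09 (SE 0.15).

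The authors' deposited classes of Mov10 targets cover 8 of the 10 genes. Hsp90ab1, Hspa8, Hspa4, Hsp90b1 and Hspe1 were classed as Mov10 targets without m6A, a methylated adenosine within mRNA. Hsp90aa1, Hsph1 and Hspa5 were classed as non-targets, Hspa9 and Hspd1 were in no class, and 0 were targets with m6A. The 5 targets had log2 tail changes from 0.03 to 0.21, all above 0, where 52.5% of the 720 tested genes of that class were above 0. No change among them passed the test, and those of Hsp90ab1, Hspa4 and Hspe1 fell below 0 with 1 library left out, to -0.07 and -0.03 for the first 2 genes and -0.06 for the third. The non-targets Hsp90aa1 and Hspa5 had -0.02 and 0.09, and the unclassed Hspa9 and Hspd1 had -0.01 each.

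**Figure D3:**
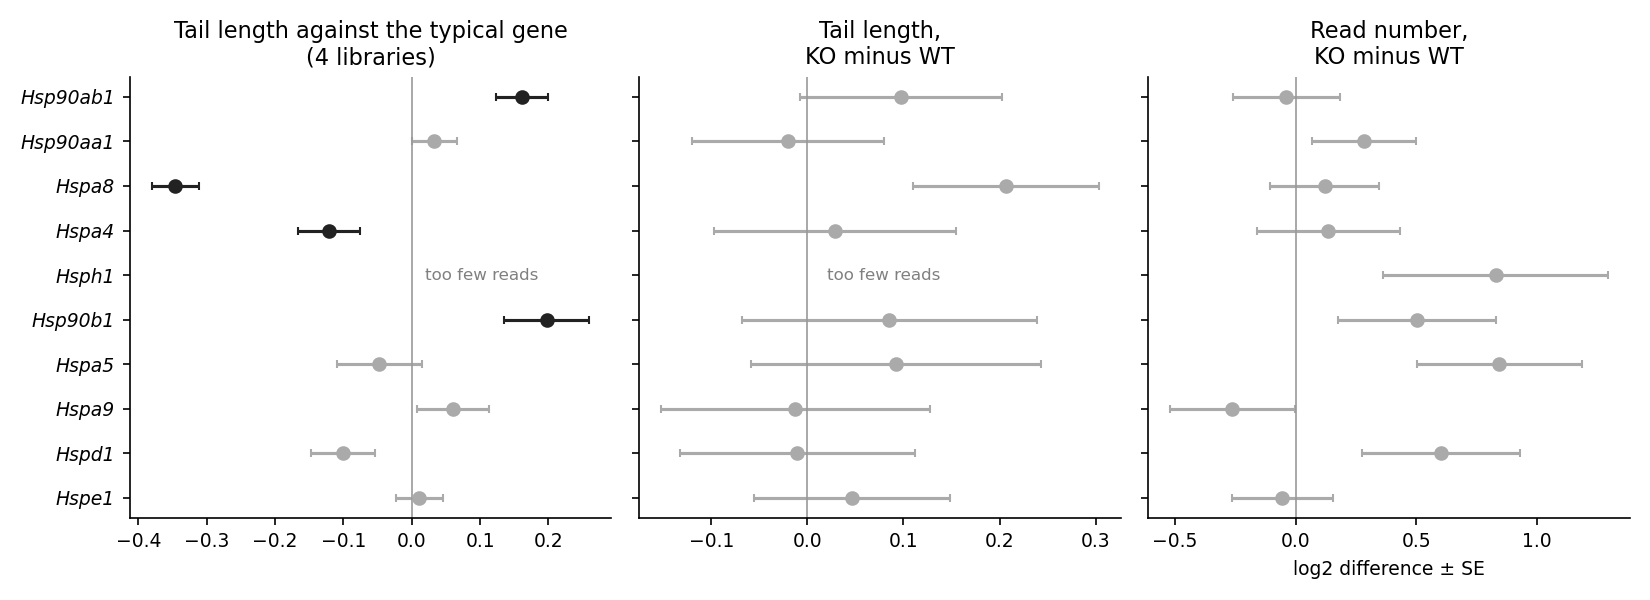
Log2 differences with standard errors (horizontal axes) for each gene: median tail length against the typical gene over 4 libraries, KO minus WT tail length, and KO minus WT read number. Black points passed an adjusted p of 0.05 in limma (Hspa8, Hsp90ab1, Hsp90b1 and Hspa4 in the left panel, from -0.35 to 0.20) and grey points did not.

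Read number was taken as the measure of mRNA level. A direct RNA read is 1 molecule read from its tail inward, so levels are given per molecule and not divided by length, and they are scaled between libraries by the median of ratios and expressed per 1000000 reads (scaled RPM). In such bulk samples fewer cells of a kind and less RNA per cell cannot be told apart. The most read gene was Hspa8, with 3268 scaled RPM ± 705 (SD, n = 4), before Hsp90aa1 with 2635 ± 449.7, Hspe1 with 2314 ± 173.8 and Hsp90ab1 with 1878 ± 264.4. Then came Hspd1 with 814 ± 318.7, Hspa4 with 656 ± 206.4, Hspa9 with 343 ± 54.1, Hspa5 with 235 ± 95.5, Hsp90b1 with 204 ± 65.7 and Hsph1 with 66.6 ± 31.7. The steps from Hsp90ab1 to Hspd1, from Hspa4 to Hspa9 and from Hsp90b1 to Hsph1 were in the same direction in 4 of 4 libraries, and the other neighbours changed places in at least 1.

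Most of the genes with low or middle read numbers were lowest in WT 1. Hspa5 had 98.8 scaled RPM in WT 1 and 260.3 in WT 2, against 258.1 in KO 1 and 322.3 in KO 2. Hspd1 had 359.7, 1030.1, 827.1 and 1041 in the same order, and Hsp90b1 had 106.4, 249.2, 233.9 and 226.0. In each of these 3 genes WT 2 was close to the KO libraries and WT 1 stood alone below them. The same held for Hsph1, with 20.3 in WT 1 and 91.4, 74.2 and 80.6 in the others, and more weakly for Hspa4, with 400.2 against 905.5, 654.6 and 664.7.

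Of the 4 most read genes only Hsp90aa1 was lowest in WT 1. Hsp90ab1 was highest in WT 1, with 2222 scaled RPM against 1601 in WT 2, 1766 in KO 1 and 1922 in KO 2. Hspe1 had 2191, 2537, 2367 and 2162, a narrow range in which WT 1 was not the lowest. Hsp90aa1 had 2037, 2749.8, 3120.3 and 2634, with WT 1 the lowest. Hspa8 had 2971, 3162, 2659.7 and 4279, with its high value in KO 2, and Hspa9 had 347.1, 401.5, 353.7 and 270.8, with its low value there.

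**Figure D4:**
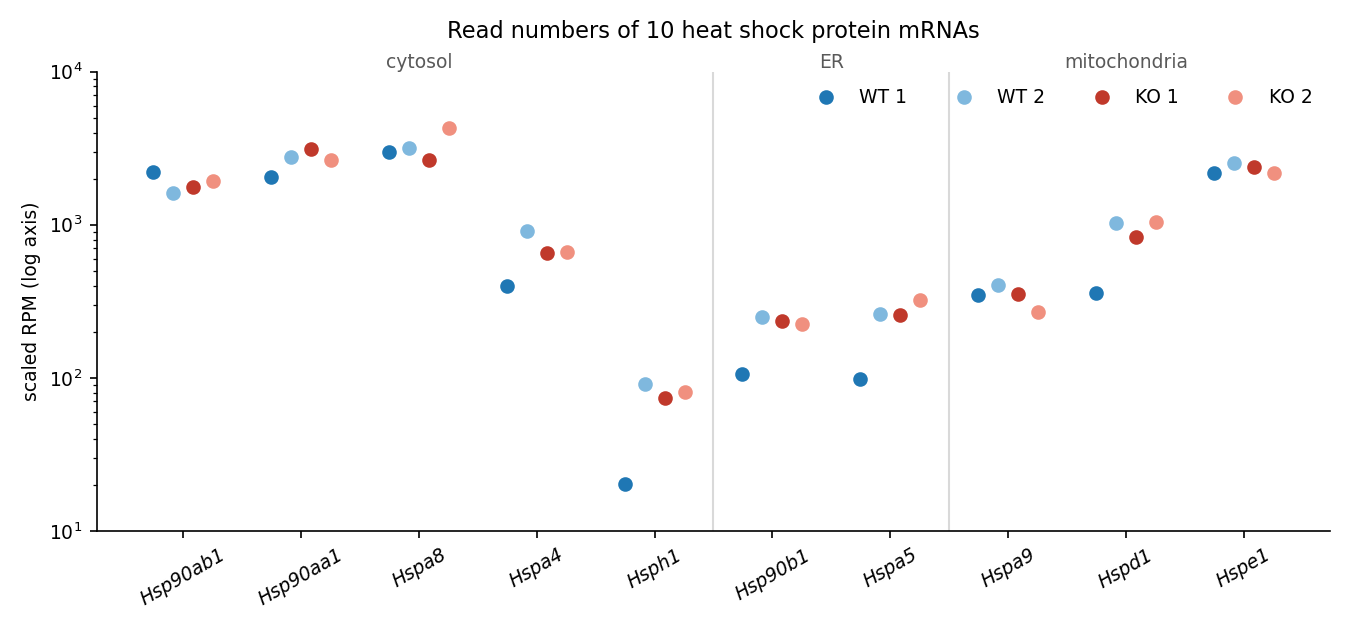
Read number of the 10 genes in scaled RPM (vertical axis, log scale), 1 point a library. WT 1 lies below the 3 other libraries for Hsph1, Hspa5, Hspd1, Hsp90b1, Hspa4 and Hsp90aa1, while Hsp90ab1 and Hspe1 stay within 1601 to 2537 scaled RPM.

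Counted over the table, WT 1 was the lowest library for 6 of the 10 genes, where 31.2% of the 4815 genes tested for read number had it lowest. It was under 0.5 of the lowest other library for 4 of 10 (Hsph1, Hspa5, Hspd1 and Hsp90b1), where 4.32% of all genes were. The same count over all genes was 2.31% for WT 2, 0.291% for KO 1 and 1.25% for KO 2. This count was chosen after the values were seen. The read number ratio of Hspd1 to Hspe1, whose starts share the promoter stretch printed above, was 0.164 in WT 1 and 0.406 in WT 2, against 0.349 in KO 1 and 0.481 in KO 2.

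No heat shock gene passed the test for a difference in read number between KO and WT. Limma's voom test called 0 of 10, where 0.0208% of all genes were called (1 of 4815, Mov10) and 500 had an unadjusted p under 0.05. The 10 log2 changes ran from -0.26 to 0.84 with a median of 0.21, against 0.00 over all genes, and 7 were above 0. KO libraries were both higher than both WT libraries for 0 of 10, where 20.5% of all genes were, and both lower for 0, where 20% were. With scaling by the total of each library the median over all genes became 0.11, which turned Hsp90ab1 and Hspe1 to 0.05 and 0.06, so that 9 of 10 were above 0 there.

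The larger changes, of the ER genes, Hspd1 and Hsph1, depended on WT 1. The largest was that of Hspa5, a log2 change of 0.84 (SE 0.34, limma, adjusted p = 0.397), the wild type having 179.5 scaled RPM ± 114.2 (SD, n = 2) and the knockout 290.2 ± 45.4 (SD, n = 2). With only 1 WT library in the fit, it was 0.15 without WT 1 and 1.52 without WT 2. Hspd1 had 0.60 (SE 0.33), which was -0.14 without WT 1 and 1.35 without WT 2. Hsph1 and Hsp90b1 had 0.83 (SE 0.47) and 0.50 (SE 0.33), which turned to -0.23 and -0.09 without WT 1. Without WT 2 they were 1.85 and 1.10, and the change of Hspa4 was 0.72. With WT 1 as the only WT library, the median log2 change was 0.61 over the 10 heat shock genes and -0.03 over all genes. With WT 2 as the only one, these medians were -0.12 and 0.01.

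Hspa4 had 0.13 with all libraries and -0.44 without WT 1. The changes of Hsp90aa1 (0.28), Hspa8 (0.12), Hsp90ab1 (-0.04), Hspe1 (-0.06) and Hspa9 (-0.26) had standard errors from 0.21 to 0.26 and adjusted p-values from 0.672 to 0.966 (limma).

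Reads of a gene could be divided among annotated transcripts. Of the 10 genes, Hsp90ab1, Hspa4, Hspa9, Hspd1 and Hspe1 had at least 99.7% of their reads on 1 transcript. Hspa8, Hsp90aa1 and Hspa5 had their reads on a pair of transcripts each, and how the authors chose between transcripts of a gene is not given in the sources used here. The second Hspa8 transcript (ENSMUST00000117557.7) took 21.3% of the gene's reads in WT 1 (95% Wilson interval 19.1 to 23.7%) and 46.6% in WT 2 (43.7 to 49.5%), against 45.8% in KO 1 (43.5 to 48.1%) and 37.4% in KO 2 (35.3 to 39.6%). That of Hsp90aa1 (ENSMUST00000021698.12) took 36.9% in WT 1 (33.7 to 40.3%) and from 47.9 to 50.3% in the other libraries. For Hspa5, ENSMUST00000100171.2 took 28.2% in WT 1 (16.5 to 43.8%) and from 51.4 to 55.6% in the others. In each of the 3 genes WT 1 had the most uneven use of the pair. Hspa5 and Hsp90aa1 also had their lowest read number in WT 1, and Hspa8 did not. What part this has in the read numbers was not tested.

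A difference in tail length between paired transcripts was not called for Hspa8 or Hsp90aa1. The ratio could be tested in 211 genes with at least 20 reads on both transcripts in each library, and limma called 0 of the 2 heat shock genes among them, where 0.474% of all were called. For Hspa8 the log2 ratio of the main to the second transcript was 0.07 (SE 0.05, limma, adjusted p = 0.597), with values of 0.12, 0.11, -0.02 and 0.06 in WT 1, WT 2, KO 1 and KO 2. For Hsp90aa1 it was -0.02 (SE 0.04, limma, adjusted p = 0.891). The pair of Hspa5 had too few reads for the test. On ENSMUST00000100171.2 its medians were 118.5 nt in WT 1 (11 reads), 79.6 nt in WT 2, 106.6 nt in KO 1 and 107.6 nt in KO 2. On ENSMUST00000028222.12 they were 99.4 nt in WT 1 (28 reads), then 105.8, 110.5 and 99.8 nt in the same order. The short tails of Hspa8 were thus seen on both of its transcripts, with medians from 76.1 to 94.0 nt on the main one and from 70.1 to 95.4 nt on the second.

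Few reads were shared with other symbols on the same transcripts. Of the 23648 reads, 14 lay on transcripts where another symbol held more reads, and on the genes' own transcripts the largest number of reads given to other symbols was 32, for Hspa8 (mainly Gm5575). Hspa8 reads placed on transcripts of near-identical copies under another symbol were not counted, so the extent of such a split was not tested.

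The partners of these chaperones were examined as lists. Hspa1a and Hspa1b, the stress-inducible cytosolic HSP70 genes, had 3 and 8 reads over all 4 libraries. Far above them in the same list was the small heat shock protein Hspb1, with 1452, 977.5, 972.6 and 1276 scaled RPM in WT 1, WT 2, KO 1 and KO 2 and median tails of 92.0, 107.2, 109.5 and 90.6 nt. Hsbp1, a binding protein of HSF1, had from 104.1 to 134.3 scaled RPM, and the factor Hsf2 had 40 reads in all.

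Co-chaperones of HSP90 were led by Sugt1 (425.2 to 613.0 scaled RPM), Ptges3, also called p23 (210.3 to 590.8), and the prolyl isomerase Fkbp4 (215.3 to 295.4). The cytosolic partners of HSP70 were led by the J-domain protein Dnaja1 (248.3 to 483.4), the exchange factor Bag1 (167.2 to 188.3) and St13, which stabilizes the ADP state of HSP70 (144.4 to 188.3). The ER list was led by the lectin chaperone Canx (116.5 in WT 1 against 324.5 to 365.5 in the other libraries), the stress response factor Atf4 (521.8 in WT 1 against 206.8 to 277.5) and the disulphide isomerase Pdia3 (195.1 in WT 1 against 295.2 to 321.2). The mitochondrial list was led by the exchange factor Grpel1 (194.7 to 279.7) and the proteases Clpp (146.9 to 221.6) and Yme1l1 (82.8 to 126.9). Of the 62 genes of the 5 lists with a mean of 10 reads or more, WT 1 was the lowest library for 25, or 40.3%. Over all genes 31.2% had it lowest. By list this share was 46.2% for HSP90 co-chaperones and 47.1% each for HSP70 partners and ER genes. It was 16.7% of 12 mitochondrial genes and 33.3% of 3 stress genes. WT 1 was the highest library for 20 of the 62, a share not counted over all genes.

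With all 4 libraries, none of the 5 lists had a call in either direction between KO and WT. For tail length the tested genes numbered 10 of 14 HSP90 co-chaperones, 12 of 24 HSP70 partners, 2 of 11 stress genes, 8 of 24 ER genes and 4 of 12 mitochondrial genes, with median log2 changes of -0.06, -0.10, -0.02, -0.01 and 0.08. For read number they numbered 13, 17, 3, 17 and 12, with median log2 changes of 0.09, -0.13, -0.11, 0.02 and -0.18. In those 5 lists 1, 1, 0, 1 and 1 genes had an unadjusted p under 0.05 for read number, and 0 in each had for tail length, beside 500 of 4815 and 44 of 1935 over all genes. Without WT 2, which leaves 1 WT library, the lists in the same order had median log2 changes in read number of 0.14, -0.13, -0.34, 0.16 and -0.14. Over all genes the median was -0.03 there. Against the typical gene, tails were longer in 2, 1, 0, 2 and 1 and shorter in 3, 4, 0, 0 and 2 of the genes tested for tail length (limma, adjusted p under 0.05), where 16.6% and 18.3% of all genes were.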

How the data were processed

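Direct RNA reads of 4 libraries were analysed, 2 WT and 2 KO. The submitters' processing notes name minimap2 2.20 without its role. The basecaller, genome build, annotation version, tail length tool and read filters are not given in the sources used here. Per the file headers, the deposited table gives a transcript, a symbol, a library and a tail length in nt per read, an estimate with no recorded normalization.

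The table held 1903922 reads, and 3 with a tail length of 0 were left out. Medians, shares and read numbers per gene and library were computed with Python 3.11.15, pandas 2.3.3 and scipy 1.17.1. Tail length, the odds of a tail of 150 nt or more and isoform ratios were fitted with limma 3.58.1 in R 4.3.3 for all genes with at least 20 reads in each library. Read numbers, counted here, were fitted with limma's voom (0.5 reads added, median-of-ratios scaling, a mean of at least 10 reads). All adjusted p-values are Benjamini-Hochberg over all genes tested, with a threshold of 0.05. The fits were tested on simulated data, in which tail lengths varied by read sampling alone. For tail length that test therefore does not cover differences between libraries of a genotype. Other read minimums, scalings, models, tail summaries, transcript choices and sets of libraries were tried. Wilson and order-statistic intervals cover the sampling of reads only.

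Genes and lists were chosen with earlier results of these data known. The rule for names took all 10 genes, Mov10 and the 3 most read genes of each partner list. Hspa1a and Hspa1b were named after their values were seen. Gene identifiers were looked up by symbol in a reference table.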

Additional observations from a re-analysis of the deposited data

How the results depend on the processing

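Alternative values were collected for the 10 heat shock genes and, for read number, Mov10, and not for the partner genes. Of these 385 values, 326 kept their direction and side of the threshold, 41 changed sign, 9 passed the threshold anew and 9 no longer passed. With the mean of log2 tail lengths, the KO minus WT tail change of Hspd1 was 0.00798, and Hspe1 against the typical gene was -0.029, or -0.013 with at least 10 reads. Total reads scaling gave read number changes of 0.054 for Hsp90ab1 and 0.062 for Hspe1. Reads of the most-read transcript alone gave 0.000776 for Hsp90ab1 and -0.00883 for Hspa8. With long tails set at 120 nt the log2 odds changes were 0.49 for Hspa5 and 0.11 for Hspe1, and at 200 nt -0.12 for Hspa8, 0.12 for Hspa5 and 0.092 for Hspe1.

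Genes called for tail length numbered 1 with at least 10 reads. For read number they numbered 7 with total reads scaling, 96 with no filter, and 0 with limma-trend or the most-read transcript alone. For tails against the typical gene 370 were called with at least 50 reads, and for isoforms 0 with at least 10 and 12 with at least 50 reads. The replicate block gave 65 calls for read number, none of them a heat shock gene. The shared numbers pair no libraries by the labels, and deviations of same-numbered libraries correlated at 0.0135 for tail length and 0.0437 for read number. The block changed no other call.

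With 1 library left out, the KO minus WT change in tail length ran from -0.075 to 0.27 for Hsp90ab1, from -0.092 to 0.071 for Hspd1, from -0.059 to 0.15 for Hspe1, from -0.077 to 0.036 for Hsp90aa1, from -0.072 to 0.046 for Hspa9 and from -0.028 to 0.086 for Hspa4. The change in read number ran from -0.27 to 0.22 for Hsp90ab1, from -0.44 to 0.72 for Hspa4, from -0.23 to 1.85 for Hsph1, from -0.095 to 1.10 for Hsp90b1, from -0.14 to 1.35 for Hspd1, from -0.14 to 0.051 for Hspe1 and from -0.18 to 0.50 for Hspa8. The change in the log2 odds of a long tail ran from -0.17 to 1.04 for Hsp90ab1, from -0.18 to 0.23 for Hspa4, from -0.31 to 0.24 for Hspe1, from -0.13 to 0.47 for Hspa8, from -0.31 to 0.11 for Hspa5, from -0.32 to 0.082 for Hspd1 and from -0.45 to 0.092 for Hspa9. Tail length against the typical gene ran from -0.082 to 0.00642 for Hspa5 and from -0.014 to 0.030 for Hspe1. Genes called then ran from 0 to 2 for tail length, 0 to 456 for read number, 0 to 9 for long tails, 457 to 651 against the typical gene and 0 to 3 for isoforms.

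Hsph1 could not be fitted for tail length in most settings, and groups of 2 allow no check of single libraries against their group. Where 1 library stood for a genotype it was assumed to vary like the other genotype. For Hsph1, Hspa5 and Hsp90b1, with as few as 8, 39 and 42 reads a library, depth limits the values.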
